A study of Rattus norvegicus with 17 samples.

Results

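The 7 genes described here mark the inhibitory interneurons of the hippocampus, the cells that release gamma-aminobutyric acid (GABA). They are the GABA-synthesizing enzymes Gad1 (ENSRNOG00000000007) and Gad2 (ENSRNOG00000018200), the vesicular GABA transporter Slc32a1 (ENSRNOG00000015393), and the subtype markers Sst (ENSRNOG00000001837), Pvalb (ENSRNOG00000006471), Vip (ENSRNOG00000018808) and Cck (ENSRNOG00000019321). They were chosen by name for what they are known to mark, at a time when earlier results of these data were known. All 7 were found by their Ensembl identifiers among the 26402 genes of the table. All 7 had reads in each of the 16 deeper libraries, and all 7 passed the filter on low values.

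GABA interneurons are a minority of hippocampal neurons, yet they set when and how strongly pyramidal cells can fire. Glutamate decarboxylase makes GABA from glutamate, the vesicular transporter loads it into synaptic vesicles, and both steps are shared by interneurons of every subtype. The subtypes differ in which part of the pyramidal cell they contact: parvalbumin cells mostly contact the soma and axon initial segment, somatostatin cells the dendrites, cholecystokinin basket cells the soma, and many Vip cells contact other interneurons.

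The study asked how Enzastaurin (ENZ), a selective inhibitor of the beta isoform of protein kinase C, affects memory in middle-aged rats, and profiled RNA from the left CA1/CA2 hippocampal tissue. All animals were male Fischer-344 rats (spelled Fisher-344 in the sample labels), 12 months old, that were trained in a water maze while they were injected under the skin each day for 3 days. The ENZ group (7 rats here; the labels state 1 more, not analysed here) received 25 mg/kg in 0.4 mL of polyethylene glycol, and the Vehicle group (10 rats) received polyethylene glycol alone. Tissue was taken right after the last maze trial, and each library came from a separate animal.

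Sequencing depth differed widely between rats, and Vehicle rat G1_80 stood apart from the others. Its library held 33422 reads, so that a single read was worth 103.4 normalized counts. The other 9 Vehicle libraries held 2716777 to 20731523 reads (median 8710997), and the 7 ENZ libraries held 3880391 to 11531705 reads (median 5182015). In G1_80 the genes rested on 3 reads for Gad1, 0 for Gad2, 3 for Slc32a1, 6 for Sst, 1 for Pvalb, 0 for Vip and 3 for Cck. At the median share of the other 16 rats, a library of that size would have held 7.64 reads of Gad1 and 0.608 reads of Vip. For Gad2 that number was 2.66 reads, under the 3 reads that a count of 0 allows, so a lower level of Gad2 was not detectable at this depth. Results are therefore given for the 9 Vehicle and 7 ENZ rats, and then for all 17. In those 16 rats the smallest number of reads behind a value was 47, for Vip in ENZ rat G2_125.

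No marker gene of GABA interneurons differed between ENZ and Vehicle rats beyond the spread between animals. Of the 7 genes, 4 had a higher and 3 a lower mean in the ENZ group on the log2 scale. The groups overlapped for all 7, but the share of all tested genes whose groups overlap was not computed. The median log2 fold change of the 7 genes was 0.06, beside -0.0043 over all 13853 genes tested. The median size of their change was 0.08, beside 0.06 over all genes tested. None of the 7 had an unadjusted p under 0.05 by limma, where 324 of the 13853 genes did (2.34%). After Benjamini-Hochberg adjustment over all genes, limma called 0 genes (0%), as did DESeq2 and edgeR on the recovered reads of the same 16 rats, with 309 of 20796 and 315 of 13413 tested genes at an unadjusted p under 0.05.

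**Figure D1:**
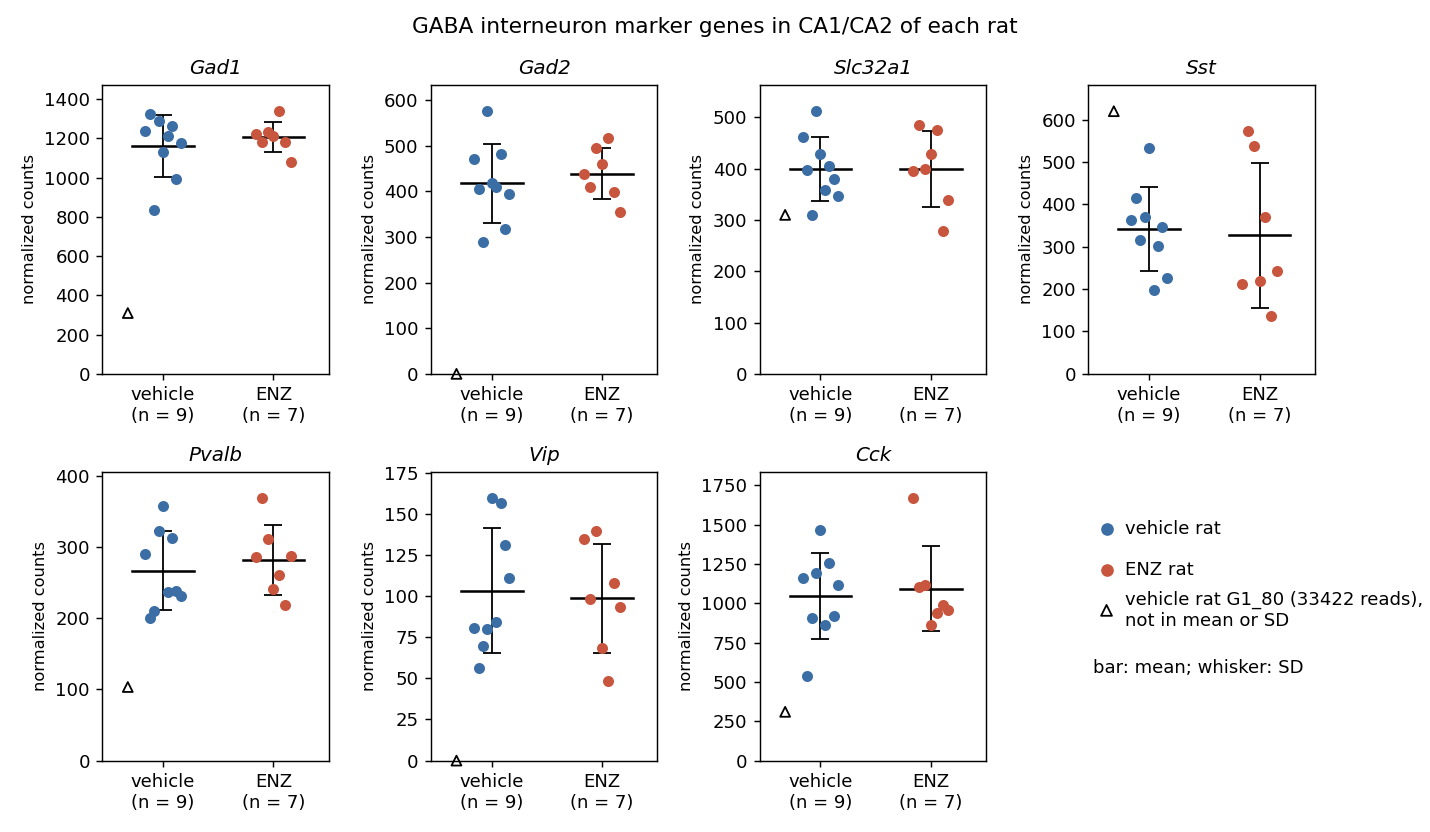
Normalized counts (y axis, from 0) of the 7 marker genes in each rat, with Vehicle (n = 9, blue) and ENZ (n = 7, red) side by side; bars are means, whiskers are SD, and the open triangle is Vehicle rat G1_80, which enters neither. The 2 groups overlap for all 7 genes, and the points of Sst, Vip and Cck are more spread relative to their means than those of Gad1.

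Both enzymes that make GABA had overlapping levels in the groups. Gad1, the isoform found throughout the cell, ran from 834 to 1325 normalized counts in Vehicle rats (median 1211) and from 1081 to 1339 in ENZ rats (median 1212). The range of the ENZ group lay mostly inside that of the Vehicle group, whose low end was set by rats G1_44 and G1_134. Vehicle rats averaged 1163 ± 157 (SD, n = 9) and ENZ rats 1207 ± 76.9 (SD, n = 7), which gave a log2 fold change of 0.06 with a standard error of 0.081 (limma adjusted p = 0.9998, and exact permutation p = 0.507, two-sided, unadjusted). Its 95% interval, -0.10 to 0.23, spans folds of 0.930 to 1.18. Gad2, the isoform anchored to synaptic vesicles in nerve terminals, ran from 288 to 575 in Vehicle rats (median 409) and from 355 to 516 in ENZ rats (median 438). Rat G1_44 was again the lowest, G1_53 was the highest, and every ENZ rat lay between them. The log2 fold change of Gad2 was 0.09 with a standard error of 0.117 (limma adjusted p = 0.9998, exact permutation p = 0.504). Without G1_44 alone the log2 fold change was 0.0066 for Gad1 and 0.027 for Gad2. Without the Vehicle rats G1_44, G1_134 and G1_8, a set taken from earlier results of these data, it was -0.03 and -0.02, although leaving out G1_8 alone gave 0.08 and 0.12.

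Slc32a1, which carries GABA and glycine into vesicles, had nearly equal means. It ran from 309 to 512 in Vehicle rats (median 398) and from 278 to 486 in ENZ rats (median 399). The lowest value belonged to ENZ rat G2_152 and the highest to Vehicle rat G1_53, with the remaining animals of both groups mixed between them. Vehicle rats averaged 399.9 ± 61.8 (SD, n = 9) and ENZ rats 400.1 ± 73.7 (SD, n = 7), and the log2 fold change was -0.0069 with a standard error of 0.113 (limma adjusted p = 0.9998, exact permutation p = 0.956). Its 95% interval spans folds of 0.845 to 1.17.

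Among the subtype markers, the neuropeptide Sst had the widest spread, and its groups could not be separated. Sst ran from 199 to 532 in Vehicle rats (median 346) and from 136 to 575 in ENZ rats (median 242). The ENZ group held both the lowest rat, G2_152, and the highest, G2_62, and 4 of its 7 rats lay at or below 242 while G2_62 and G2_71 lay above every Vehicle rat of the 9. The average was 341 ± 99.3 (SD, n = 9) in Vehicle rats against 328 ± 171 (SD, n = 7) in ENZ rats, with a log2 fold change of -0.17 and a standard error of 0.261 (limma adjusted p = 0.9998, exact permutation p = 0.569). The 95% interval of -0.72 to 0.37 spans folds of 0.607 to 1.29, so that the data limit the change of Sst less tightly than that of Gad1. On the reads of the same 16 rats the log2 fold change of Sst was -0.06 by DESeq2 and -0.05 by edgeR. By limma it was 0.0082 without ENZ rat G2_152, but -0.34 without G2_62 and -0.32 without G2_71.

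Pvalb, a calcium-buffering protein of fast-spiking cells, ran from 200 to 358 normalized counts in Vehicle rats (median 239) and from 219 to 369 in ENZ rats (median 286). Both ranges nearly coincided, with rat G1_18 lowest and G2_62 highest. The log2 fold change was 0.09 with a standard error of 0.124 (limma adjusted p = 0.9998, exact permutation p = 0.520).

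Vip, a neuropeptide, had the fewest reads of the 7 genes and ran from 56.5 to 160 in Vehicle rats (median 84.6) and from 48.4 to 139 in ENZ rats (median 98.2). Vehicle rats G1_89 and G1_107 were highest, and ENZ rat G2_125 was lowest. The log2 fold change was -0.06 with a standard error of 0.234 and a 95% interval of -0.55 to 0.43 (limma adjusted p = 0.9998, exact permutation p = 0.822).

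Cck, a neuropeptide that marks a class of basket cells but is also made by many pyramidal cells, ran from 537 to 1463 in Vehicle rats (median 1118) and from 864 to 1669 in ENZ rats (median 989). Vehicle rat G1_18 was lowest and ENZ rat G2_26 was highest, standing apart within the ENZ group but not far above Vehicle rat G1_89, and the groups overlapped. The log2 fold change was 0.08 with a standard error of 0.167 (limma adjusted p = 0.9998, exact permutation p = 0.697), and it was -0.03 without G1_18 and -0.03 without G2_26. In tissue RNA, fewer cells of a type and less RNA per cell cannot be told apart, and for Cck the share that comes from pyramidal cells was not measured.

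With G1_80 included, 38 of 13844 genes had an unadjusted p under 0.05 by limma (0.274%), none of them among the 7, and the whole distribution moved. Over all genes the median was then 0.16 on the log2 scale, so values are also given relative to it. Gad2 and Vip, both at 0 reads in G1_80, had log2 fold changes of 0.96 and 0.60, which are 0.80 and 0.44 above that median. On the log2 scale these 0 reads entered as 0, where a single read of G1_80 would be worth 103.4 normalized counts. Count models on the reads of the same 17 rats, chosen after seeing the data, gave 0.09 for Gad2 by DESeq2 and 0.08 by edgeR, and -0.03 and 0.0048 for Vip. Sst, whose 6 reads made G1_80 the highest of the Vehicle rats, had -0.27, or -0.43 relative to the median. The remaining log2 fold changes, with the value relative to the median in brackets, were 0.25 (0.09) for Gad1, 0.03 (-0.13) for Slc32a1, 0.22 (0.06) for Pvalb and 0.25 (0.09) for Cck, and limma adjusted p-values of the 7 genes lay between 0.786 and 0.910.

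The proportions of the markers to each other were also compared, with Gad1 as the common denominator. The mean log2 ratio of Sst to Gad1 was -1.81 ± 0.476 (SD, n = 9) in Vehicle and -2.05 ± 0.747 (SD, n = 7) in ENZ rats, a difference of -0.24 with a standard error of 0.324. For Vip the difference was -0.13 with a standard error of 0.294, and for Pvalb it was 0.03 with a standard error of 0.145. In each of the 6 ratios the difference between groups was smaller than its standard error, and no test was run on them. A ratio between genes holds their unequal lengths, so the proportions are compared between rats and not between genes.

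Most of the interneuron markers varied more from rat to rat than most genes of similar abundance, with Sst, Vip and Cck varying most. Over the 16 rats the coefficient of variation of Sst was 38.9%, with a 4.24-fold range, where read counting alone would give about 5.04%. Among the 500 genes nearest to it in median count, 99.0% varied less than Sst, and their median coefficient of variation was 9.33%. Vip varied by 34.4% over a 3.30-fold range, above 97.2% of its 500 neighbours, with 9.44% from counting. Cck varied by 24.6% over a 3.11-fold range, above 96.6% of its neighbours.

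Gad1 varied least of the 7 genes, by 10.7%, above 66.8% of its neighbours in abundance. Gad2 varied by 17.1%, above 89.8% of its neighbours, and Slc32a1 by 16.2%, above 88.8%. Pvalb varied by 18.9%, above 90.4% of its neighbours. All 7 genes exceeded the median of their own 500 neighbours, but for Gad1 this rests on G1_44, without which it varied by 7.40% against a neighbour median of 8.44%. The other 6 genes stayed above the median of their own neighbours on leaving out each of the 16 rats in turn, a check chosen after seeing the data. The median coefficient of variation was 18.9% for the 7 genes and 13.8% for all 13853. This spread lay within the groups: the coefficient of variation of Sst around its group means was 40.2%, and that of Vip 35.5%.

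Individual rats were high or low in different markers. On the log2(normalized count + 1) scale, ENZ rat G2_71 lay above the mean of the 16 rats for 7 of the 7 genes, though its Slc32a1 was within 0.055 SD of that mean. Vehicle rats G1_44 and G1_98 and ENZ rat G2_161 lay below the log2 mean for 6 of 7, where the Sst of G1_44 was above it by 0.039 SD, and in G1_44 the lowest values were those of Gad1 and Gad2. Vehicle rat G1_18 had the highest Gad1 of its group together with the lowest Pvalb, Vip and Cck of its group. ENZ rat G2_152 was lowest in Slc32a1 and Sst, while its Gad1 and Vip lay above the log2 mean.

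Across rats the enzymes Gad1 and Gad2 rose and fell together more closely than any other pair. Slc32a1 followed Gad2, Sst and Pvalb, and Cck followed Pvalb and Vip. No correlation of Vip with the synthesis and transport genes passed the threshold. Of the 21 pairs, 6 had an adjusted p under 0.05 for Pearson's r on the log2 scale (permutation test with 100000 resamples, two-sided, Benjamini-Hochberg over the 21 pairs computed), and 8 had an unadjusted p under 0.05. By Spearman's rho 6 pairs passed too. The median r of the 21 pairs was 0.30, beside 0.002 over all pairs of tested genes. An r of at least 0.6 was found in 28.6% of the 21 pairs, beside 2.32% of all pairs. The set of all pairs takes in every gene with a median of at least 5, while the lowest median among the markers was 95.7, for Vip. That set was not matched to the markers in abundance or in spread between rats. Whether matched pairs of other genes would have a similar r was not tested.

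**Figure D2:**
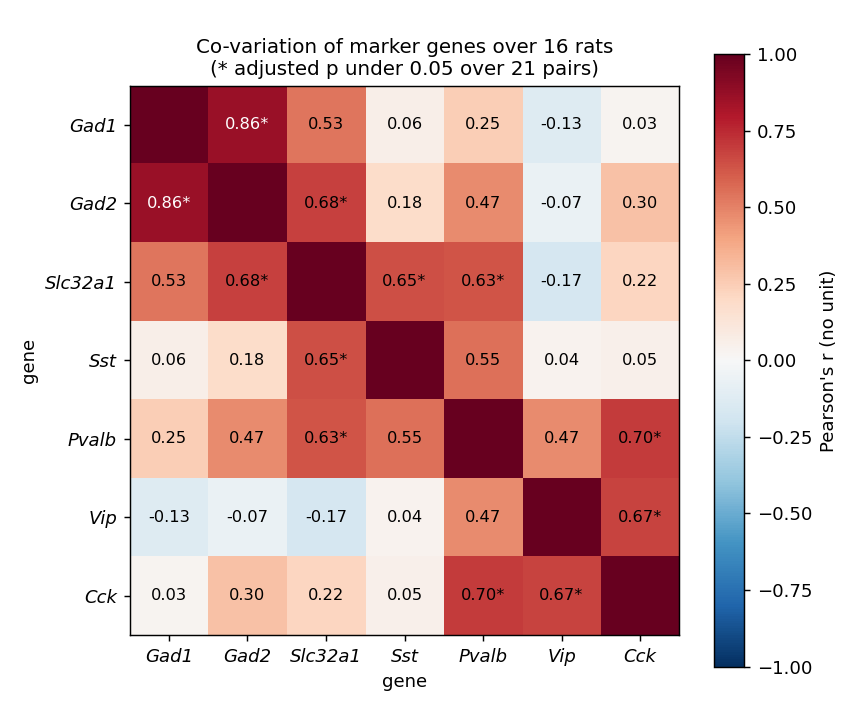
Pearson's r (colour and number, no unit) between each pair of the 7 marker genes over 16 rats, on log2 normalized counts; stars mark the 6 pairs with an adjusted p under 0.05. The highest value is 0.86 for Gad1 with Gad2, and the lowest is -0.17 for Slc32a1 with Vip.

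Gad1 and Gad2 correlated with r = 0.86 over 16 rats (permutation p = 2e-05, adjusted p = 0.00042) and rho = 0.81 (permutation p = 0.00025, adjusted p = 0.00525). The lowest values of both came from G1_44 and G1_134, and without these rats r was 0.70 (permutation p = 0.00592, n = 14). The relation was present in both groups, with r = 0.85 in Vehicle rats (exact permutation p = 0.00262, n = 9) and r = 0.93 in ENZ rats (exact permutation p = 0.000992, n = 7). Of 13852 other genes, 1 was closer to Gad1 than Gad2 was. For Gad2, 2 genes were closer than Gad1. In the other 5 pairs that passed, many genes were closer than the fellow marker: Slc32a1 ranked 91 for Gad2, and Pvalb ranked 645 for Slc32a1. The gene closest to Gad1, ENSRNOG00000018494, has no name in the sources used here, and it had r = 0.89 with Gad1.

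Slc32a1 was correlated with Gad2, with Sst and with Pvalb. With Gad2, r was 0.68 (permutation p = 0.00371, adjusted p = 0.0195) and rho 0.76 (permutation p = 0.00094, adjusted p = 0.00987). This relation rests in part on G1_44 and G1_53, the rats farthest from the median of Gad2, without which r was 0.50 (permutation p = 0.0704, n = 14). Without G1_44 and G2_152, the farthest in Slc32a1, r was 0.68 (permutation p = 0.00757, n = 14). The groups alone gave 0.85 in Vehicle rats (exact permutation p = 0.00526, n = 9) and 0.56 in ENZ rats (exact permutation p = 0.190, n = 7), and the difference between the groups was not tested.

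Slc32a1 and Sst had r = 0.65 (permutation p = 0.00673, adjusted p = 0.0283) and rho = 0.62 (permutation p = 0.0117, adjusted p = 0.0409). Without G1_44 and G2_152, the rats farthest from the median of Slc32a1, r was 0.55 (permutation p = 0.0417, n = 14). Without G2_62 and G2_152, the rats with the highest and the lowest Sst, it was 0.40 (permutation p = 0.159, n = 14), so the relation rests in part on the ends of the Sst range. It was 0.52 in Vehicle rats (exact permutation p = 0.152, n = 9) and 0.74 in ENZ rats (exact permutation p = 0.0494, n = 7). Slc32a1 and Pvalb had r = 0.63 (permutation p = 0.0100, adjusted p = 0.0351) and rho = 0.69 (permutation p = 0.00398, adjusted p = 0.0209). The groups alone gave 0.72 in Vehicle rats (exact permutation p = 0.0287, n = 9) and 0.57 in ENZ rats (exact permutation p = 0.185, n = 7). This relation rests in part on G1_44 and G2_152, without which r was 0.49 (permutation p = 0.0771, n = 14), while without G1_18 and G2_62, the farthest in Pvalb, r was 0.65 (permutation p = 0.0130, n = 14).

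Among the subtype markers, Pvalb and Cck had r = 0.70 (permutation p = 0.00147, adjusted p = 0.0154) and rho = 0.70 (permutation p = 0.00374, adjusted p = 0.0209). Without G1_18 and G2_62 r was 0.69 (permutation p = 0.00643, n = 14). The correlation was 0.85 in Vehicle rats (exact permutation p = 0.00141, n = 9) and 0.36 in ENZ rats (exact permutation p = 0.422, n = 7), a difference that was not tested. Vip and Cck had r = 0.67 (permutation p = 0.00314, adjusted p = 0.0195) and rho = 0.67 (permutation p = 0.00633, adjusted p = 0.0266). Leaving out G1_18 and G2_125 gave r = 0.62 (permutation p = 0.0188, n = 14), and the groups alone gave 0.72 in Vehicle rats (exact permutation p = 0.0223, n = 9) and 0.66 in ENZ rats (exact permutation p = 0.106, n = 7).

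**Figure D3:**
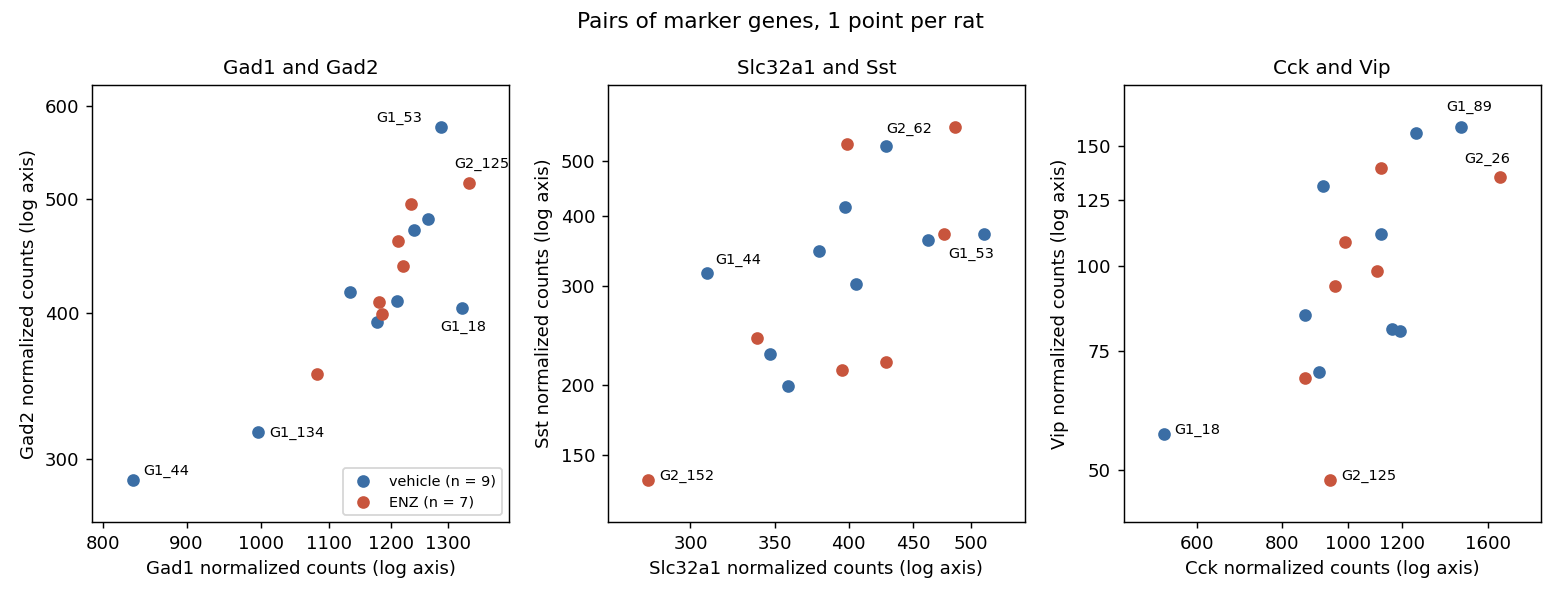
Normalized counts of 3 pairs of marker genes, on log axes, with 1 point per rat, Vehicle (n = 9) in blue and ENZ (n = 7) in red, and with the rats farthest out named. Gad1 and Gad2 lie along a line in both groups (r = 0.86), Slc32a1 and Sst are spread more widely (r = 0.65), and Cck and Vip (r = 0.67) reach from G1_18 at the low end to G2_26 and G1_89 at the high end.

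The remaining 15 pairs did not pass the adjusted threshold. Gad1 with Slc32a1 had r = 0.53 (adjusted permutation p = 0.0835), and Sst with Pvalb had r = 0.55 (adjusted permutation p = 0.0835). With values centred on group means these were 0.55 and 0.60. Sst had an r near 0 with Gad1 (0.06), Vip (0.04) and Cck (0.05). Vip had r = -0.13 with Gad1 and -0.17 with Slc32a1. On leaving out each rat in turn, r ran from -0.51 to 0.02 for Gad1 with Vip and from -0.29 to -0.02 for Slc32a1 with Vip. These relations use a single tissue piece and a single library per rat. Sequencing depth had an r between -0.34 (Vip) and 0.33 (Gad2) with the 7 genes, and with depth removed Gad1 and Gad2 had r = 0.87.

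Part of the co-variation was shared with many other genes. The first 3 principal components of all tested genes together held 48.7% of the variance, and they held 84.7% of the variance of Pvalb, whose r with the first component was -0.86, but 43.98% of that of Sst. With these components removed, an alternative chosen after seeing the data, 2 of the 21 pairs passed: r was 0.81 for Gad1 with Gad2 and 0.73 for Vip with Cck, and the median r was -0.13. The other 4 pairs lost their call: r fell to 0.52 for Slc32a1 with Sst, to 0.40 for Pvalb with Cck and to 0.16 for Gad2 with Slc32a1, and it was -0.14 for Slc32a1 with Pvalb. Among pairs that had not passed, r was 0.62 for Pvalb with Vip, -0.54 for Gad1 with Pvalb, -0.57 for Gad1 with Vip and -0.59 for Sst with Cck. Single rats weigh heavily in these components. G1_44 had a loading of 0.752 on component 3 and of 0.526 on component 1, where G2_62 had -0.513. On component 2, G2_125 had 0.606 and G2_152 had -0.448. The part of tissue composition, dissection and RNA handling in these components was not tested. With G1_80 added, 8 pairs passed and the median r was 0.63, but single pairs moved both ways. Gad1 and Vip, which had r = -0.13 without it, had r = 0.89. Gad2 with Slc32a1 had 0.41 in place of 0.68, Slc32a1 with Sst 0.42 in place of 0.65, Sst with Pvalb 0.0060 in place of 0.55, and Gad1 with Sst -0.35 in place of 0.06.

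Promoter sequences are shown for the most closely linked pair (Gad1 and Gad2), for the pair Slc32a1 and Sst, and for Vip, so that the genes can be compared. The r of Vip with Gad1 and with Slc32a1 did not pass the threshold. A link between the sequences and the correlations was not tested. Windows of 300 bases were taken from the RefSeq promoter table on build GRCr8, whereas the reads were aligned to rn5, and 6 of the 7 genes had an entry. For 3 of these 6 (Gad1, Pvalb and Vip) the window is not set on the outermost start that the RefSeq gene table gives, so where it lies relative to the start of transcription is uncertain. The windows are chr3:75777202-75777501 (plus strand) for Gad1, chr17:89671468-89671767 (plus strand) for Gad2, chr3:167686995-167687294 (plus strand) for Slc32a1, chr11:90461296-90461595 (plus strand) for Sst and chr1:44470230-44470529 (plus strand) for Vip. Capitals mark matches to the letters TGACGTC, the core of a cAMP response element, to the letters TATAAA of a TATA box, or to the letters GGGCGG of a GC box, each searched on both strands. On the other strand the first of these reads GACGTCA. Sequences read 5′ to 3′.
Gad1: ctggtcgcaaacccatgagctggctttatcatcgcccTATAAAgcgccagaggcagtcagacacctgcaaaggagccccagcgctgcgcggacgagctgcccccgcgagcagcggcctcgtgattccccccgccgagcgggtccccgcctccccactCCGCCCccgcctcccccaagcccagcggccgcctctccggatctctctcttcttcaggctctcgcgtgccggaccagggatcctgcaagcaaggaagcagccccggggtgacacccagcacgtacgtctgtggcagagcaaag
Gad2: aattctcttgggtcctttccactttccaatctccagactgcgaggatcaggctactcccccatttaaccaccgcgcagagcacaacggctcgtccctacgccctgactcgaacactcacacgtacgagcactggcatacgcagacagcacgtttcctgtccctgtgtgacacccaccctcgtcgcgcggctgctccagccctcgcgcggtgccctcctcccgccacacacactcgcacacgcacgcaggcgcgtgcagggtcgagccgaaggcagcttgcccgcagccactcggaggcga
Slc32a1: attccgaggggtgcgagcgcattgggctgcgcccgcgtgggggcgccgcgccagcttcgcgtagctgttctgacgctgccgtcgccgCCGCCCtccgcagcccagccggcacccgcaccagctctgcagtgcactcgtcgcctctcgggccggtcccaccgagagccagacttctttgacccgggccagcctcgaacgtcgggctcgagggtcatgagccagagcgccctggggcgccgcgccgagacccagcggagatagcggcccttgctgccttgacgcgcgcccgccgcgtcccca
Sst: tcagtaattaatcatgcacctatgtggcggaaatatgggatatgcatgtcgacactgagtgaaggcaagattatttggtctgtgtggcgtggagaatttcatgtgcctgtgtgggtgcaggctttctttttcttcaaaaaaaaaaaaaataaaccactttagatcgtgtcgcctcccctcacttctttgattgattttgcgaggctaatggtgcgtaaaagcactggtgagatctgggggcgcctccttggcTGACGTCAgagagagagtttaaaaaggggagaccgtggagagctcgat
Vip: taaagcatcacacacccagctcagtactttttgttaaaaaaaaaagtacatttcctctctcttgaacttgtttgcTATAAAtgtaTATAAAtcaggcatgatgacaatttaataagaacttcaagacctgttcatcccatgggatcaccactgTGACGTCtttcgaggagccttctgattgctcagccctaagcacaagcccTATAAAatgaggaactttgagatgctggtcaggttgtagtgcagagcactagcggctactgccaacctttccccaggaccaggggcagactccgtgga

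Of the 33469 promoters in the table, 3.22% hold TGACGTC on either strand, 14.2% hold TATAAA and 33.1% hold GGGCGG. In Sst the cAMP-type letters matched on both strands, 2 overlapping matches that together read as a palindrome, and in Vip they matched 1 time. The windows of Gad1, Gad2, Slc32a1 and Pvalb held no match to TGACGTC. Vip had 3 matches to TATAAA and Gad1 had 1, while Gad1, Slc32a1 and Pvalb each had 1 match to GGGCGG. GC content was 67.7% in Gad1, 63.7% in Gad2, 73.7% in Slc32a1, 60.7% in Pvalb, 45.7% in Sst and 44% in Vip, with a median of 51.7% over all promoters. A match describes the letters of the window only.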

How the data were processed

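RNA-seq libraries were prepared with the TruSeq RNA kit from 10 Vehicle and 7 ENZ rats. Per the labels and methods, the authors aligned reads to rn5 with STAR 2.4.0a, counted them per gene with featureCounts 1.4.4 and deposited normalized values (a signal in units of reads divided by a size factor of each library, as DESeq2 makes them). The annotation release and the strand setting are not given in the sources used here. Whole reads were recovered from the steps of each column: 100% of values came out whole within 0.001 reads. Columns without a sample numbered 0.

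Groups followed the labels. The main test was limma 3.58.1 (R 4.3.3) with its variance prior fitted as a trend of abundance, run on log2(normalized count + 1) in 9 Vehicle and 7 ENZ rats and 13853 genes with a median of at least 5, adjusted by the Benjamini-Hochberg method over all genes. In the 16 rats, fold changes on this scale understate those of low genes. With G1_80 added this need not hold, because 0 reads of so shallow a library lie far below a single read on this scale. G1_80 was left out because of its depth. The authors removed outlier samples before their own analysis that the sources used here do not name, so the 16 rats may include any of them. Single genes also had exact permutation tests of group means. Intervals cover 95%, and the limit allowed by 0 reads is 3 reads of the library and covers counting error only. The count tests were DESeq2 1.42.0, which called 0 genes, and edgeR 4.0.16, which called 0. Alternatives were all 17 rats, 13 rats, pseudocounts, filters, scalings, array weights and leaving out each rat. The limma and correlation steps were run on simulated data as a check of the code. In the limma step those data gave all genes the same spread beyond counting. Neither simulation held variation shared by many genes, so the check does not cover that feature of the rats here. Correlations and plots used Python 3.11.15, numpy 2.4.6, scipy 1.17.1, pandas 2.3.3 and matplotlib 3.10.9.

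The named genes are the 7 members, plus, of the genes closest to each in r, at most 2 identifiers. The members and lists were chosen with earlier results of these data known. The reference gene table (GRCr8) matched 0 of the Ensembl identifiers, so gene names come from the definition of the gene set, and other interneuron genes and markers of other cell types were not analysed here.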

Additional observations from a re-analysis of the deposited data

Results flagged for a closer look

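Of 21 combinations of a gene and a group (Vehicle with and without G1_80, and ENZ), 5 had a rat at 1 end that lay farther from its nearest neighbour than Dixon's 95% critical value allows, where chance gives about 1.05 (1 in 20). Of these, 4 come from the library of G1_80. Without the group of 10 Vehicle rats, 1 of 14 combinations remains, against about 0.7 by chance. In Vehicle rat G1_80, on the log2(normalized count + 1) scale, Gad1 was lowest at 8.28, Gad2 at 0, Pvalb at 6.71 and Vip at 0, all among 10 Vehicle rats. These values rest on 3, 0, 1 and 0 reads of a library of 33422 reads. In ENZ rat G2_26, Cck was highest of 7 rats at 10.71, with the nearest, G2_71, at 10.13, and the library held 7059925 reads. The Vip of G2_26, 135 normalized counts, was the second highest of the ENZ group.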

How the results depend on the processing

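For each of the 7 genes, limma, DESeq2 or edgeR gave an adjusted p between 0.786 and 1.00 under the alternatives run, and Pvalb alone kept its direction in all 30 of them. The sign turned in 1 of 30 for Gad1, Gad2 and Sst, in 2 for Cck and in 8 for Slc32a1 and Vip. It turned in 13 rats (without G1_44, G1_134, G1_8 and G1_80) for Gad1 (-0.031) and Gad2 (-0.022). It turned with all 17 rats for Slc32a1 (0.028, but -0.13 relative to the median of all genes) and Vip (0.60, but -0.03 by DESeq2). On reads of all 17 rats, chosen after seeing the data, Slc32a1 had 0.0036 by DESeq2 and 0.0019 by edgeR, and Vip 0.0048 by edgeR. On the 16 rats Vip had 0.00056 by edgeR and 0.0056 with array weights. Leaving out each rat in turn gave 0.0066 to 0.091 for Gad1, 0.027 to 0.15 for Gad2, 0.023 to 0.15 for Pvalb, -0.057 to 0.077 for Slc32a1, -0.34 to 0.0082 for Sst, -0.16 to 0.095 for Vip and -0.035 to 0.15 for Cck. The cause was not tested.

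The number of genes with an adjusted p under 0.05 was 0 in every setting except DESeq2 on all 17 rats, which called 5, none of them among the 7. The number at an unadjusted p under 0.05, 324 of 13853, was 38 with all 17 rats, 95 by DESeq2 on all 17 and 244 by edgeR on all 17. It was 625 with no filter (20796 genes tested), 201 at a median of at least 50 (9653 tested), and 287 to 458 on leaving out each rat. The 6 correlated pairs became 2, and the median r of 0.30 became -0.13, with 3 principal components removed. The median was 0.63 with all 17 rats (8 pairs) and 0.42 by rho. With values centred on group means, 7 pairs passed, in a test that made no allowance for the fitted means, and the median was 0.28. Without G1_44, G1_53 and G2_125, a set picked after seeing the data and by no fixed rule, 4 pairs passed with a median of 0.22, and leaving out each rat gave 4 to 7 pairs and a median of 0.26 to 0.37. With 9 and 7 rats the 95% intervals of Sst and Vip still spanned folds of 0.607 to 1.29 and 0.683 to 1.35.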
